A study of Mus musculus with 4 samples.

Results

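The genes described here are 10 genes listed under goblet cell secretion, *Tff1*, *Tff2*, *Tff3*, *Fcgbp*, *Zg16*, *Agr2*, *Spink4*, *Retnlb*, *B3gnt6* and *Itln1*, measured on 4 mouse colon arrays. They are called goblet cell genes below as the name of this list, although *Tff1* and *Tff2* belong mainly to the stomach. Which cells gave the signal of each was not tested. They were chosen by name, with earlier results of these arrays known, and *Retnlb* and *B3gnt6* were included because their signal was low on both arrays from mice given azoxymethane (AOM), a chemical that causes tumors of the colon. All probes with these gene names were taken, which gave 14 probes among 39429, and 10 genes among 22387 that could be named. Of the 10 genes, 8 were well above background on all 4 arrays and all 10 were so on at least 1 array, by the test of the scanner software. The levels that follow are therefore a description of values that helped to choose the genes, and no test was applied to them.

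Each of the 4 one-color arrays was hybridized with RNA pooled within 1 group of male mice of the background B6.129 (n3), aged 42 weeks. The groups were Pla2g3+/+ (WT) with saline as vehicle, Pla2g3-/- (KO) with vehicle, WT with AOM and KO with AOM. AOM was given at 10 mg/kg by weekly intraperitoneal injection for 6 weeks, and the colon was taken 28 weeks after the last dose. The KO mice are null for *Pla2g3*, the gene for a secreted phospholipase A2, and WT littermates came from the same crosses of C57BL/6 and 129 mice. Between 3 and 5 mice made up a pool per the labels. The study describes whole descending colon, whereas the labels call the tissue of both AOM pools colorectal cancer, so a pool holds epithelium, muscle and immune cells in unknown shares. In such bulk RNA, fewer goblet cells and less RNA per goblet cell cannot be told apart.

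Goblet cells fill the colon with mucus, a gel of the mucin Muc2 to which other secreted proteins are bound or added. Muc2 is folded in the endoplasmic reticulum with the help of the disulfide isomerase Agr2 and is decorated with O-glycans. Among the O-glycan types is core 3, made by the enzyme that *B3gnt6* encodes. Muc2 is then stored in granules with Fcgbp, Zg16 and trefoil factor 3. Resistin-like molecule beta, encoded by *Retnlb*, is released by the same cells, acts on bacteria and is known to be induced by colonization and by type 2 cytokines. Trefoil factors 1 and 2 belong mainly to the stomach, and intelectin 1 is a lectin that binds sugars of microbial surfaces.

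The signal of each gene was read by probes of 60 bases, and 30 bases are shown for those on which the account turns. *Retnlb* and *B3gnt6* are the genes that were low on both AOM arrays, and *Zg16* stands for the mucus proteins.

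Retnlb, first 30 bases: aggaggttgagaaaccaatttcaaaatgat
B3gnt6, first 30 bases: cttcatgttgtaaagccagatcactaggta
Zg16, first 30 bases: aacactgtcctccgtttcattagtgggcaa

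The *Retnlb* probe lies at chr16:48818874-48818933 on the plus strand of mm9, the *B3gnt6* probe at chr7:105341054-105341113 on the minus strand, and the *Zg16* probe at chr7:134193837-134193896 on the minus strand. *Itln1* has a close relative, *Itlnb*, which strain 129 carries and C57BL/6 lacks, and the present mice were a mixture of both. An *Itln1* probe, at chr1:173448254-173448313 on the minus strand, and the *Itlnb* probe are aligned here, with the 3 bases by which these stretches differ in capitals.

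Itln1, bases 1 to 30: tgacTtagtaactGGaatgctaatgagcaa
Itlnb, bases 4 to 33: tgacAtagtaactTCaatgctaatgagcaa

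Over all 57 bases that these probes share, 4 differed. Whether RNA of one gene was read by the probe of the other was not tested.

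The scanner software gave a signal for each spot after subtraction of background. It is given here as a relative signal, the signal over the 75th percentile of its array, since that percentile was 646 and 650 on the WT and KO-labeled vehicle arrays and 1309 and 1169 on the WT and KO-labeled AOM arrays. Fold and log2 differences are between relative signals unless another scaling is named, also where signals are printed unscaled. The share of spots well above background was 64.8% to 69.4%, and no spot was saturated. If a gene passed the background test on just 1 array of a pair, the other array was taken at its own signal or at the weakest signal that passed there (10.7 to 17.1), whichever was higher, and "at least" marks such a difference. Each group has 1 array, so there was no replicate check, and 2-fold serves as a threshold of size. The error that the software gives a spot was 10% to 18.1% for the 48 of 56 member spots well above background, which does not cover the spread between mice. The targeted gene, *Pla2g3*, went against the labels, although where its probes lie relative to the deleted part is not given in the sources used here. Its brightest probe gave signals of 343, 426, 304 and 1632 on the WT vehicle, KO-labeled vehicle, WT AOM and KO-labeled AOM arrays. In relative signal it was 1.23-fold and 6.01-fold higher on the arrays labeled KO, with vehicle and after AOM. Every direction below follows the labels.

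With vehicle, the goblet cell genes differed little between genotypes. Of the 9 genes with a value, 1 was 2-fold or more higher on the array labeled KO, against 1.93% of all 16396 genes with a value, and none was 2-fold or more lower, against 1.32%. The exception was *Tff2*, described further on. The median log2 difference of the 9 genes was -0.01, beside -0.02 over all genes. After AOM the genes separated into several patterns. Between the AOM arrays, 5 of 9 were 2-fold or more higher on the KO-labeled array, against 15.1% of 17203 genes, and 2 of 9 lower, against 12.9%. On the WT AOM array, 7 of 9 were 2-fold or more lower than with vehicle, against 22.4% of 17282 genes, and 1 was higher, against 15.1%. On the KO-labeled AOM array, 8 of 9 were 2-fold or more lower than with vehicle, against 15.1% of 16520 genes, and none was higher, against 9.64%. These 4 comparisons share arrays with one another and are not independent. The counts were partly fixed in advance, since *Retnlb* and *B3gnt6* were included for low signal on both AOM arrays. *Tff2*, well above background only on the KO-labeled vehicle array, could only come out higher there than in WT and lower after AOM. *Tff1*, not well above background with vehicle, could only come out higher after AOM in WT. The shares of all genes are given for reference.

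**Figure D1:**
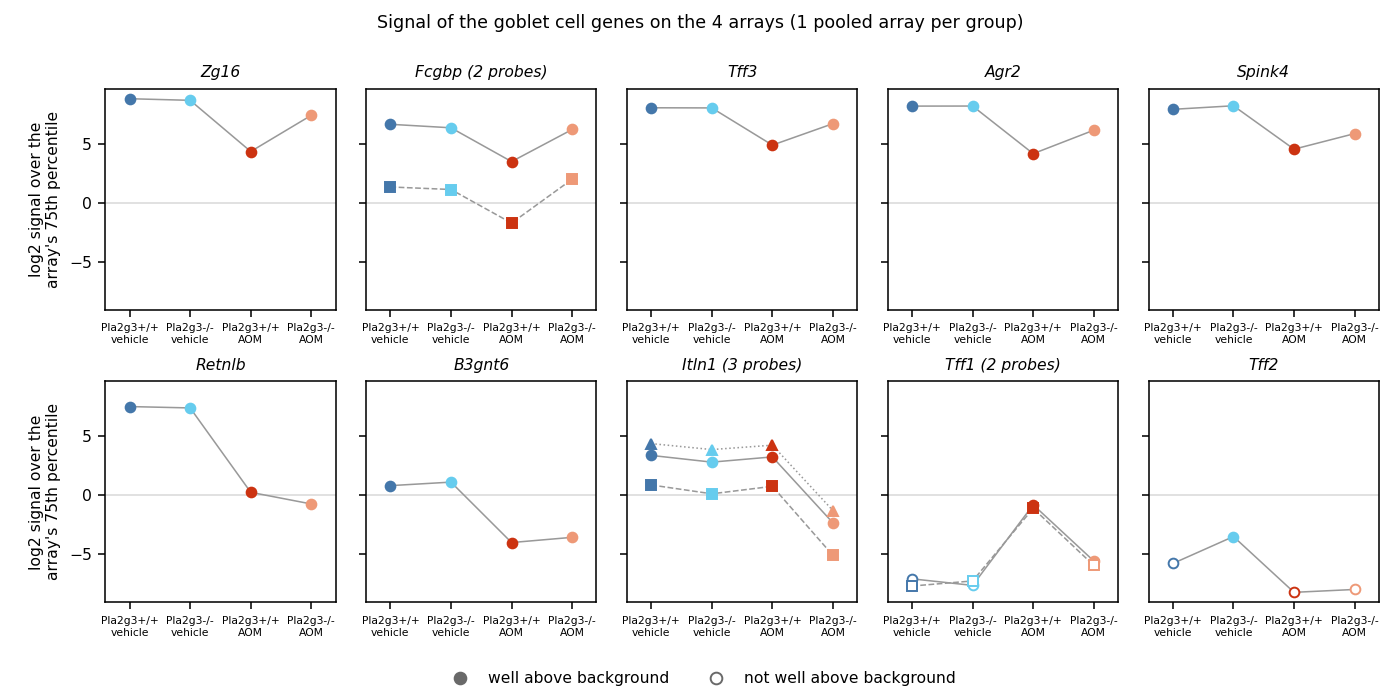
Signal of each probe of the 10 genes (y axis, log2 of the signal over the array's 75th percentile) on the 4 arrays (x axis), 1 point per probe and array, with open points where the signal was not well above background and a different marker for each probe of a gene. Zg16, Fcgbp, Tff3, Agr2 and Spink4 are lowest on the WT AOM array, Retnlb and B3gnt6 are low on both AOM arrays, and Itln1 is low on the KO-labeled AOM array.

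The mucus proteins *Zg16*, *Fcgbp* and *Tff3* were low on the WT AOM array and higher on the KO-labeled AOM array. *Zg16*, a lectin-like protein that binds Gram-positive bacteria, had a relative signal of 444 on the WT vehicle array, 404 on the KO-labeled vehicle array, 20.0 on the WT AOM array and 168 on the KO-labeled AOM array. It was thus 22.2-fold lower after AOM in WT but 2.41-fold lower on the arrays labeled KO, and 8.39-fold higher on the KO-labeled than on the WT AOM array. *Fcgbp*, a large protein of the Muc2 network, gave 98.8, 80.5, 11.1 and 72.8 on the same arrays with its brightest probe, at chr7:28905517-28905576 on the plus strand of mm9. This probe was 8.93-fold lower after AOM in WT and 1.11-fold lower on the KO-labeled arrays. A dimmer *Fcgbp* probe, at chr7:28873024-28873083, gave 2.50, 2.15, 0.2998 and 3.93, or 8.32-fold lower in WT and 1.83-fold higher on the KO-labeled arrays. Both probes placed the WT AOM array below the other 3, and they differed on whether the KO-labeled AOM array lay below or above vehicle, neither by 2-fold. The sign for the brightest probe also turned with quantile normalization, with or without normexp background correction, and with no scaling, at a log2 difference of 0.70 in each.

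*Tff3*, the trefoil peptide of the intestine that promotes repair of the epithelium, had relative signals of 261, 259, 29.1 and 103 in the same order, with its probe at chr17:31262279-31262338 on the minus strand. It was 8.95-fold lower after AOM in WT and 2.52-fold lower on the KO-labeled arrays. The latter difference, and that of *Zg16*, no longer reached 2-fold with quantile normalization or with no scaling. All 3 mucus proteins had their lowest signal on the WT AOM array.

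*Agr2* and *Spink4* followed the same order of arrays with a larger difference on the KO-labeled side. *Agr2*, the isomerase needed to fold Muc2, gave 288, 289, 17.6 and 69.9, with its probe at chr12:36730506-36730565 on the plus strand. That was 16.3-fold lower after AOM in WT and 4.13-fold lower on the KO-labeled arrays, and 3.97-fold higher on the KO-labeled than on the WT AOM array. *Spink4*, a Kazal-type inhibitor of serine proteases found in goblet cells, gave 238, 293, 22.9 and 57.2. Its 60 bases are spread over 2125 bases of chromosome 4, from 40876206 to 40878330, so the probe joins sequence that is spliced together. *Spink4* was 10.4-fold lower in WT, 5.13-fold lower on the KO-labeled arrays, and 2.50-fold higher on the KO-labeled AOM array. In this group of 5 genes the vehicle arrays lay within 1.23-fold of each other, and the WT AOM array was lowest for each.

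Between the AOM arrays, the excess on the KO-labeled array depends on the reference. When each array was centered on 12 genes of general epithelium in place of the 75th percentile, *Zg16* and *Fcgbp* stayed 2-fold or more higher there, at log2 differences of 1.87 and 1.52. *Tff3*, *Agr2* and *Spink4* did not, at 0.62, 0.79 and 0.12.

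**Figure D2:**
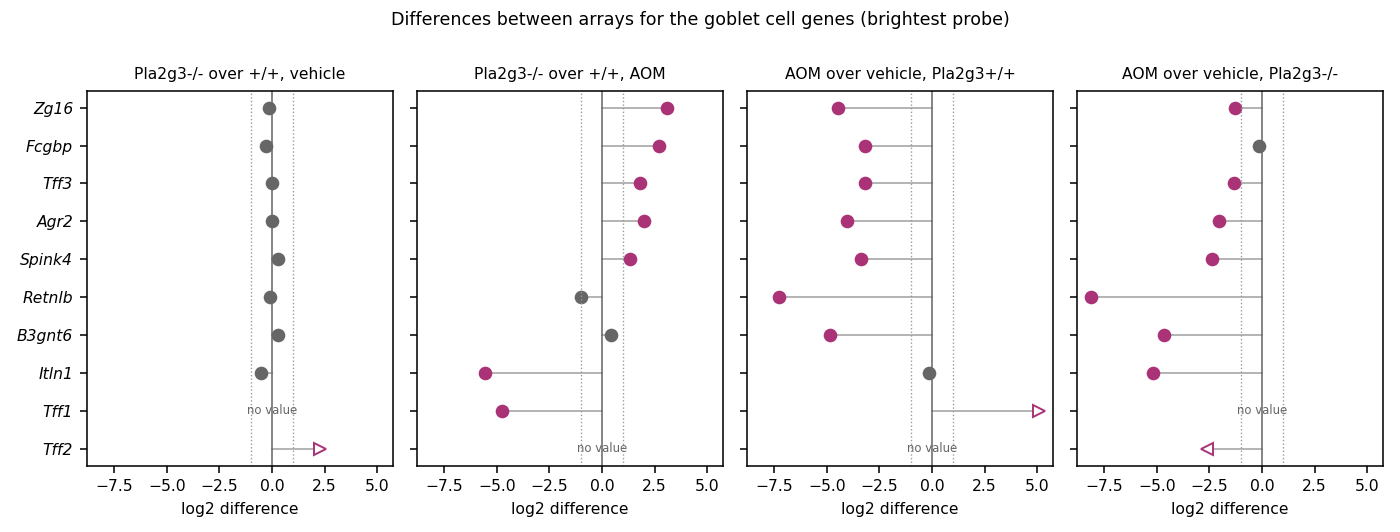
Log2 differences between arrays for the brightest probe of each of the 10 genes (x axis) in the 4 comparisons (panels), with triangles for bounds and dotted lines at 2-fold. The words "no value" stand where both arrays were below background, or where the limit for the dim array was not below the signal of the other. The points lie near 0 with vehicle except for Tff2, and Retnlb has the lowest value in both panels of AOM over vehicle.

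*Retnlb* was low on both AOM arrays. Its relative signal was 181 with vehicle in WT and 167 on the KO-labeled array, against 1.18 and 0.595 on the WT and KO-labeled AOM arrays. The raw signals were 117066, 108684, 1545 and 696, so both AOM values were still far above the lowest signals called well above background. In relative signal, *Retnlb* was 154-fold lower after AOM in WT and 281-fold lower on the KO-labeled arrays. Among 14791 genes well above background on all 4 arrays, 9 in WT and 6 on the KO-labeled arrays were as low or lower in the log2 difference between AOM and vehicle, counting *Retnlb* itself. Since *Retnlb* was included for its low signal on both AOM arrays, this rank describes that choice. Unlike the mucus proteins, *Retnlb* was not higher on the KO-labeled AOM array. It was 1.98-fold lower there than in WT, just short of the threshold, and past it with quantile normalization (log2 difference -1.01), with no scaling (-1.15) and when centered on epithelial genes (-2.19).

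*B3gnt6*, for the enzyme that makes core 3 O-glycans, behaved like *Retnlb* in that both AOM arrays were low. The relative signals were 1.75 and 2.15 with vehicle and 0.0618 and 0.0840 after AOM, in WT and on the KO-labeled arrays. It was 28.3-fold lower after AOM in WT and 25.6-fold lower on the KO-labeled arrays. The AOM arrays differed by 1.36-fold and the vehicle arrays by 1.23-fold, both higher on the arrays labeled KO and both within the 2-fold threshold. Centered on epithelial genes, the AOM difference changed sign, at -0.76 in log2, still within 2-fold.

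The KO/WT log2 difference after AOM minus that with vehicle varied among the goblet cell genes that were well above background on all arrays. It was 3.20 for *Zg16*, 3.01 for the brightest *Fcgbp* probe, 1.98 for *Agr2*, 1.83 for *Tff3* and 1.02 for *Spink4*, against 0.14 for *B3gnt6*, -0.87 for *Retnlb* and -5.04 for the brightest *Itln1* probe. With 1 array per group, no test of this difference was possible. *Retnlb* and *B3gnt6* were included for low signal on both AOM arrays, so their lack of a large positive value partly restates that choice.

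*Itln1* showed another order, with the WT AOM array near vehicle and the KO-labeled AOM array far below. Its brightest probe, at chr1:173448282-173448341 on the minus strand, gave relative signals of 20.6, 14.5, 18.8 and 0.403 on the WT vehicle, KO-labeled vehicle, WT AOM and KO-labeled AOM arrays. The probe whose bases are shown above gave 10.3, 6.95, 9.44 and 0.196, and the dimmest, for which the file gives no position, 1.82, 1.08, 1.68 and 0.0290. All 3 probes had the KO-labeled AOM array lowest. With the brightest, *Itln1* was 46.5-fold lower on the KO-labeled than on the WT AOM array, 36.0-fold lower than with vehicle on the KO-labeled arrays, and within 2-fold after AOM in WT, at a log2 difference of -0.13. The last value changed sign with quantile normalization, with or without normexp, no scaling and centering on epithelial genes, without reaching 2-fold. The *Itlnb* probe was well above background on the WT arrays, at signals of 34.6 with vehicle and 73.4 after AOM, and not on the arrays labeled KO, at 15.5 and 4.46. Beside this, Paneth cell genes moved on the same arrays. Of 9 such genes, 7 were 2-fold or more higher on the WT AOM array than with vehicle (median log2 difference 5.16), and 8 were lower on the KO-labeled than on the WT AOM array (median -7.39). Over all genes these shares were 15.1% and 12.9%. The lysozyme gene *Lyz1* had signals of 5675, 8008, 38342 and 6452, and *Pla2g2a*, a secreted phospholipase A2, had 144, 221, 6723 and 218. The summed relative signal of the list ran from 21.2 on the KO-labeled AOM array to 548 on the WT vehicle array. Most of the latter came from *Ang5* and *Mptx1*, at 251 and 287. On the WT AOM array the sum was 145, with 9.54 and 0.205 from these genes. The 2 genes of the list that were lower after AOM in WT were *Ang5*, a ribonuclease, and *Mptx1*, a pentraxin of the colon. The part of Paneth cells in the *Itln1* values was not tested.

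The gastric trefoil factors were at the limit of detection on most arrays. *Tff1*, a peptide of the surface mucous cells of the stomach, had signals of 4.74 and 3.25 with vehicle, neither well above background, and 743 in WT and 24.5 on the KO-labeled array after AOM. Another probe gave 3.11, 4.22, 602 and 18.9, the last not well above background. *Tff1* was thus at least 34.2-fold higher after AOM in WT by the first probe and at least 27.7-fold by the second, and 27.1-fold lower on the KO-labeled than on the WT AOM array. With normexp background correction and quantile normalization the log2 differences of the first probe were 2.68 and -2.49, both smaller in size but past 2-fold. These probes share 55 of their 60 bases and are not independent. The array file puts both on chromosome 5 of mm9 (chr5:143285582-143285641 for the first), whereas RefSeq has *Tff1* next to *Tff2* and *Tff3* on chromosome 17, and this was not resolved. Among 7 gastric genes with a value, 3 were 2-fold or more higher after AOM in WT (median log2 difference 0.44), against 15.1% of all genes. *Ctse*, for cathepsin E, and *Vsig1* were among them, at signals of 928 and 184 on the WT vehicle array and 4417 and 1051 on the WT AOM array. Both were also 2-fold or more higher on the KO-labeled AOM array than on the KO-labeled vehicle array. *Gkn3*, a gastrokine, was the other, and *Gkn1* was at least 8.59-fold lower. *Muc5ac*, the mucin of the same stomach cells and named after its values were seen, had signals of 15.9, 18.2, 27.6 and 39.7.

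*Tff2*, the peptide of gastric mucous neck cells, was well above background only on the KO-labeled vehicle array. The signals were 11.7, 57.2, 4.35 and 4.60, which made it at least 4.86-fold higher on the KO-labeled than on the WT vehicle array and at least 6.02-fold lower after AOM on the KO-labeled arrays. The same array also carried pancreatic acinar transcripts. Of 13 acinar genes with a value, 11 were 2-fold or more higher there than on the WT vehicle array (median log2 difference 4.67), against 1.93% of all genes. Among them was *Ctrb1*, with signals of 55.8 and 1435. *Cela1* and *Clps* were not, at log2 differences of -0.33 and -0.59. Whether the *Tff2* signal has the same source was not tested. With normexp background correction and quantile normalization neither difference reached 2-fold, at 0.72 between the vehicle arrays and -0.71 for AOM over vehicle on the KO-labeled arrays in log2.

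Of the 4 resistin family genes of the mouse, *Retnlb*, *Retnla* and *Retnlg* lie side by side on chromosome 16, and no pair had the same order of arrays. *Retnla* encodes a protein of alternatively activated macrophages and fat and gave relative signals of 3.54, 1.65 and 7.44 on the WT vehicle, KO-labeled vehicle and KO-labeled AOM arrays. On the WT AOM array its signal was 4.06, not well above background. It was thus at least 281-fold lower after AOM in WT, 4.50-fold higher after AOM on the KO-labeled arrays, and at least 592-fold higher on the KO-labeled than on the WT AOM array. *Retnlg*, whose product is found in neutrophils and bone marrow, ran the other way, at 0.0959, 0.214, 0.987 and 0.0203. It was 10.3-fold higher after AOM in WT and 10.6-fold lower on the KO-labeled arrays. *Retn*, for the fat cell hormone resistin, gave 0.868, 1.55, 0.0479 and 0.232 with its brightest probe, 18.1-fold lower after AOM in WT and 6.70-fold lower on the KO-labeled arrays, and another probe gave 48.1-fold and 8.17-fold. With this scaling, *Retnlb* was the gene of the 4 for which both AOM arrays were below both vehicle arrays and within 2-fold of each other.

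**Figure D3:**
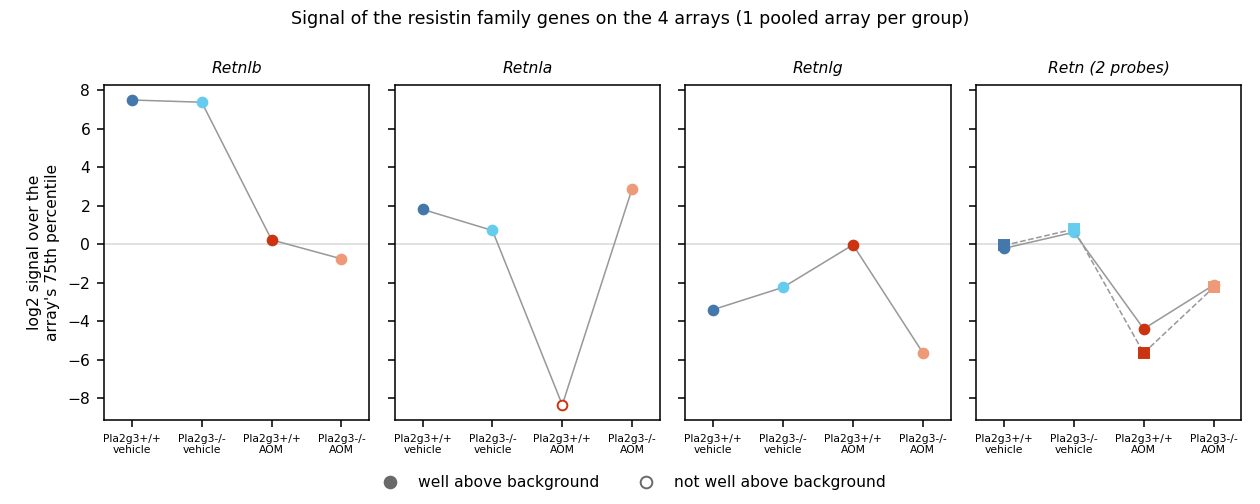
Signal of the resistin family probes (y axis, log2 of the signal over the array's 75th percentile) on the 4 arrays (x axis), with an open point where the signal was not well above background. Retnlb is low on both AOM arrays, Retnla is below background on the WT AOM array, and Retnlg is highest there.

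The upstream sequences of *Retnla* and *Retnlg* are shown because these neighbors moved in opposite directions on the same arrays. Both are the 250 bases before the start in RefSeq, build GRCm38.p6, plus strand, at chr16:48842359-48842608 for *Retnla* and chr16:48872358-48872607 for *Retnlg*. Capitals mark matches to the STAT6 motif, TTC and GAA with 4 bases of any kind between them, and to TGTTTAC, bound by FOXA factors. STAT6 carries the signal of the cytokines IL-4 and IL-13.

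Retnla: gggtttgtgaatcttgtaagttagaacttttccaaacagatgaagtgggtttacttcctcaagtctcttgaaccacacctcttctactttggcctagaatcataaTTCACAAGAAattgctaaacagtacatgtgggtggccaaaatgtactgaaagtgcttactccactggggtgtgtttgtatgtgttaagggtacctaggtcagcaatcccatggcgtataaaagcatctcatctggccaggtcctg
Retnlg: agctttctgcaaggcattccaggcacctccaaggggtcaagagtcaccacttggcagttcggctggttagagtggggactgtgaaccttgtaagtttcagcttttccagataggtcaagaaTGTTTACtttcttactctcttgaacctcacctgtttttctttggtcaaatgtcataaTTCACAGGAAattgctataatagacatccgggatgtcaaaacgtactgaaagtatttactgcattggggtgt

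The match to the STAT6 motif was TTCACAAGAA at -145 to -136 in *Retnla* and TTCACAGGAA at -72 to -63 in *Retnlg*, counted from the start. *Retnlg* also held TGTTTAC at -129 to -123. The matches do not overlap. Searched on both strands, the STAT6 motif occurred in 5.85% and TGTTTAC in 3.17% of 32851 upstream sequences of the same length. CAAAGTCCA, a form of the HNF4 motif, was in 0.384% and TGACGTG, bound by CREB3-type factors and XBP1, in 1.65%. Of the 10 goblet cell genes, upstream sequence was at hand for *Fcgbp*, *Agr2* and *Itln1*, and these 4 motifs were not in those 3 windows, nor in that of *Retn*.

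Type 2 cytokines and IL-22, known inducers of goblet cell products, were for the most part near the detection limit. Of 14 genes of this group, 7 to 10 were well above background on an array. After AOM in WT, 2 of 10 genes with a value were 2-fold or more higher and 2 lower (median log2 difference 0.19), and on the KO-labeled arrays 2 were higher and 3 lower (median -0.15). Over all genes, 15.1% were higher and 22.4% lower in WT, and 9.64% and 15.1% on the KO-labeled arrays. *Il33*, an epithelial alarmin, had signals of 202, 250, 2525 and 1362, higher on both AOM arrays. *Stat6* was at 463, 461, 1302 and 1152, and *Il13ra1* at 337, 265, 363 and 533. In relative signal neither reached 2-fold in any comparison. *Il22ra1*, the epithelial receptor chain for IL-22, was 2.44-fold lower after AOM in WT and 2.17-fold higher on the KO-labeled arrays. *Il22ra2*, the soluble IL-22 binding protein and named after its values were seen, had 779 and 436 with vehicle and 15.0 and 3.88 after AOM, the last pair not well above background, and was at least 96.0-fold lower in WT and at least 45.9-fold lower on the KO-labeled arrays.

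Most other goblet cell genes were lower after AOM in WT, and fewer were so on the KO-labeled arrays. Of 24 such genes, 22 were 2-fold or more lower after AOM in WT and none higher (median log2 difference -2.80, beside -0.17 over all genes). On the KO-labeled arrays 12 were lower and none higher (median -1.003, beside -0.08). Between the AOM arrays 14 were higher and 1 lower on the KO-labeled array (median 1.60, beside 0.03), and with vehicle none differed by 2-fold. Of all genes, 22.4% were lower after AOM in WT and 15.1% on the KO-labeled arrays. Between the AOM arrays 15.1% of all genes were higher and 12.9% lower on the KO-labeled array, and with vehicle 1.93% and 1.32%. *Muc2* itself had signals of 31910, 28767, 8551 and 39698, and relative signals of 49.4, 44.3, 6.53 and 34.0. In relative signal it was 7.57-fold lower after AOM in WT and 1.30-fold lower on the KO-labeled arrays. Unscaled, its signal was higher on the KO-labeled AOM array than on the KO-labeled vehicle array. *Clca1*, a mucus metalloprotease, had 216604, 203099, 39987 and 156008, 10.98-fold and 2.34-fold lower. *Klk1*, a tissue kallikrein, had 81875, 71958, 1679 and 50922, 98.9-fold and 2.54-fold lower. *Pla2g10*, a secreted phospholipase A2, was 4.68-fold lower in WT and 1.64-fold lower on the KO-labeled arrays. The gene that was lower on the KO-labeled AOM array was *Ang4*, a bactericidal ribonuclease, with 84769, 69293, 6021 and 547.

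Factors of the secretory lineage were split. Of 10 genes, 6 were 2-fold or more lower after AOM in WT (median -2.58), 5 on the KO-labeled arrays (median -0.92), and 5 were higher on the KO-labeled than on the WT AOM array (median 0.79). Over all genes these shares were 22.4%, 15.1% and 15.1%. *Spdef*, the factor of goblet cell maturation, had signals of 14209, 16742, 1426 and 5574, 20.2-fold lower in WT and 5.40-fold lower on the KO-labeled arrays. *Klf4* was 5.87-fold lower in WT and within 2-fold on the KO-labeled arrays. *Foxa1* did not differ by 2-fold in any comparison, and *Xbp1*, of the unfolded protein response, was within 2-fold in WT, at a log2 difference of -0.93, and just past the threshold on the KO-labeled arrays, at 2.001-fold lower.

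Other enzymes of O-glycan synthesis had smaller differences than *B3gnt6*, whose log2 differences between AOM and vehicle were -4.82 in WT and -4.68 on the KO-labeled arrays. Of 24 with a value, 17 were 2-fold or more lower after AOM in WT and none higher (median -1.65, lowest -4.52), and on the KO-labeled arrays 7 were lower and 4 higher (median -0.54, lowest -2.01). Over all genes, 22.4% were lower and 15.1% higher in WT, and 15.1% and 9.64% on the KO-labeled arrays. *St6galnac6* and *B4galnt2* were 5.20-fold and 5.64-fold lower in WT and 2.65-fold and 3.33-fold lower on the KO-labeled arrays. *B3galt5* was 3.85-fold lower in WT and at a log2 difference of 0.08 on the KO-labeled arrays, and *Galnt12*, which starts O-glycans, was 2.93-fold and 2.33-fold lower. Genes for folding in the endoplasmic reticulum other than *Agr2* had differences whose medians were smaller in size. Of 19, 5 were 2-fold or more lower after AOM in WT (median -0.56), beside 22.4% of all genes, and 6 on the KO-labeled arrays (median -0.67), beside 15.1% of all genes, with none higher in either. *Agr2*, at -4.03 in WT, lay below the lowest of them (-1.86), and at -2.05 on the KO-labeled arrays it lay within their range (lowest -2.31). *Hspa5*, the chaperone BiP, was within 2-fold in all 4 comparisons, and *Sec61b*, *Pdia6* and *Spcs1* were 2.34-fold, 1.80-fold and 1.87-fold lower in WT and 3.10-fold, 2.35-fold and 2.20-fold lower on the KO-labeled arrays. Between the AOM arrays 1 of the 19 was lower on the KO-labeled array and none higher (median -0.41), in contrast to 3.97-fold higher for *Agr2*. Over all genes these shares were 12.9% and 15.1%.

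**Figure D4:**
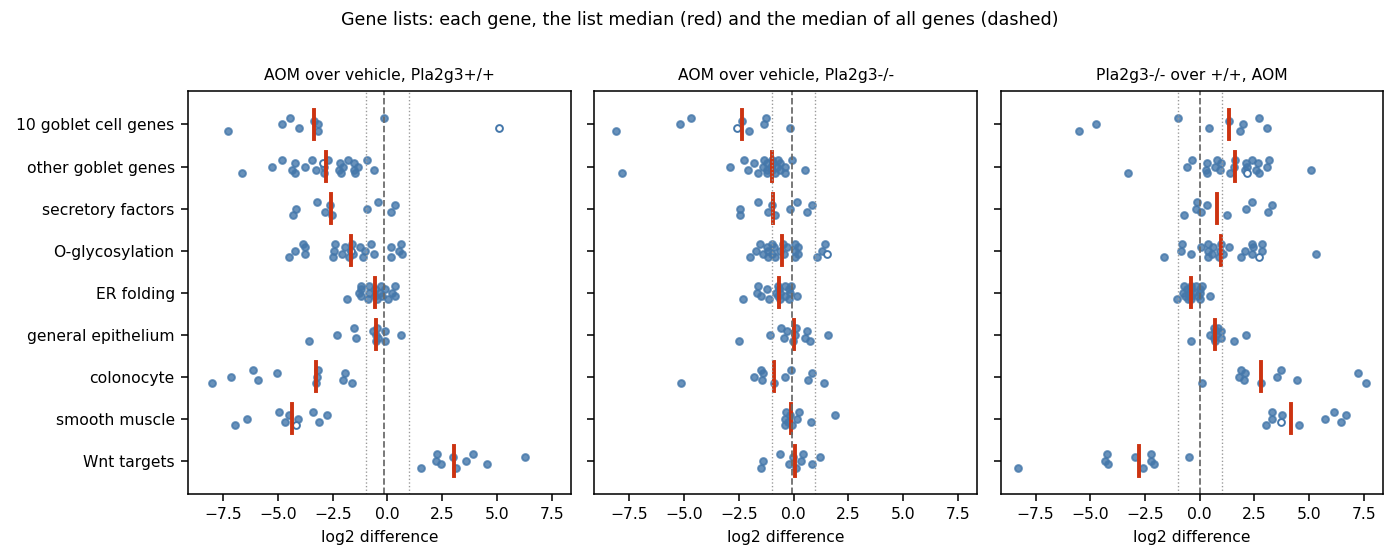
Log2 differences between arrays (x axis) for the genes of 9 lists (rows), 1 point per gene with open points for bounds, the median of the list in red, the median of all genes dashed and 2-fold dotted. Goblet cell, colonocyte and smooth muscle lists lie to the left after AOM in WT, and Wnt targets lie to the right.

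Genes of several other cell types also differed between these arrays, and their part in the goblet cell results was not tested. Of all genes with a value, 22.4% were 2-fold or more lower and 15.1% higher after AOM in WT. On the KO-labeled arrays 15.1% were lower and 9.64% higher. General epithelial genes changed less than the goblet cell genes, with 4 of 12 being 2-fold or more lower after AOM in WT (median -0.54) and 2 lower and 1 higher on the KO-labeled arrays (median 0.01). Their summed relative signal was 619, 640, 390 and 570 on the WT vehicle, KO-labeled vehicle, WT AOM and KO-labeled AOM arrays, that of the 10 goblet cell genes 1532, 1509, 121 and 471, and that of 24 other goblet cell genes 813, 738, 73.9 and 280. Colonocyte genes were lower after AOM in WT for 11 of 11 (median -3.26), and enteroendocrine genes for 8 of 9 (median -4.73). On the KO-labeled arrays the numbers were 5 of 11 and 6 of 9 (medians -0.88 and -1.91). Smooth muscle genes were lower for 10 of 10 after AOM in WT (median -4.34) and for none on the KO-labeled arrays (median -0.10), with summed relative signals of 520, 546, 31.7 and 501. Wnt target genes were higher for 10 of 10 in WT (median 3.06) and for 1 on the KO-labeled arrays (median 0.05), and proliferation genes for 4 of 7 and for none. Of 6 tuft cell genes, 3 were lower and 1 higher in WT, and 4 were lower on the KO-labeled arrays. Of 8 immune genes, 2 were lower and 2 higher in WT (median -0.20, beside -0.17 over all genes). On the KO-labeled arrays 4 immune genes were lower (median -0.88, beside -0.08). Posterior colon Hox genes were higher for 4 of 6 in each, and of the squamous epithelium genes 3 of 9 were higher and 3 lower in WT, and 3 of 8 higher and 2 lower on the KO-labeled arrays. Between the AOM arrays, the KO-labeled array was 2-fold or more higher for 10 of 11 colonocyte genes (median 2.80). It was so for 7 of 9 enteroendocrine genes, with 1 lower (median 3.18), and for 10 of 10 smooth muscle genes (median 4.15). General epithelial genes were higher for 2 of 12 (median 0.72). Wnt target genes were lower for 9 of 10, and immune genes for 6 of 8 with 1 higher. Of all genes, 15.1% were higher and 12.9% lower between these arrays.

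The likeness of patterns was measured as the root mean square difference of the 4 log2 values, after the mean of each gene was removed. *Zg16*, *Fcgbp*, *Tff3*, *Agr2* and *Spink4* lay 0.27 to 0.81 apart, with *Agr2* and *Spink4* the closest pair. *Retnlb* lay 2.55 to 3.30 from these and 1.57 from *B3gnt6*, and *Itln1* lay 2.38 to 3.05 from all others. *B3gnt6* was nearer to *Spink4* (0.99), *Agr2* (1.02), *Zg16* (1.33) and *Tff3* (1.35) than to *Retnlb*, and farther from *Fcgbp* (1.76). Among 14783 other genes, those nearest to *Retnlb* were *Ang* (0.95), *Ang2* (0.96), *Ang6* (0.98), *Ang4* (1.07) and *Ugt2b38* (1.11). The first 4 are angiogenin ribonucleases whose sequences are so alike that their probes may not read separate genes. They were lower on the KO-labeled than on the WT AOM array with log2 differences of -2.20 to -3.34, compared with -0.99 for *Retnlb*. Nearest to *B3gnt6* were *Smim38* (0.06), *Ffar2* (0.23), a receptor for short-chain fatty acids, *Sct* (0.36), for the hormone secretin, *Rps4l* (0.42) and *Rgs13* (0.43). Nearest to the median profile of the 8 goblet cell genes measured on all arrays were *Hoxb8* (0.09), *Gcnt3* (0.11), an enzyme that extends core 3 into core 4 O-glycans, *Fam3b* (0.12), *Hoxb6* (0.13) and *Nyap1* (0.19). These likenesses rest on 4 arrays and describe them only.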

How the data were processed

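Total RNA from colon was pooled within each of 4 groups, labeled with Cy3 and hybridized to Whole Mouse Genome arrays of 1 slide. Spot intensity was deposited as written by Agilent Feature Extraction 11.5.1.1, with background subtraction and spatial detrending but without scaling across arrays. The authors also deposited a ratio table, equal to the intensity divided by a constant per array close to its 75th percentile, which served as an alternative. Members and gene lists were chosen with earlier results of these data known.

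Control and outlier spots were left out, log2 intensities of repeated spots were averaged, and each array's 75th percentile over all spots other than controls was subtracted. A RefSeq table of GRCm38.p6 gave names to 31394 of 39429 probes, covering 22387 genes. Positions are on mm9 as in the array files. The probe brightest on average over the 4 arrays stood for a gene. Differences were taken between 2 arrays, with 2-fold as the threshold and a bound where 1 side was dim. No value was given where both sides were dim, or where the limit for the dim side was not below the signal of the other. Precision is limited by having 1 array per group, so no test was made. The computation was tested on simulated data with known changes.

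All probes of the 10 genes are reported. Beside them are named the other 3 resistin family genes, the 4 genes with the highest mean level of each list of other goblet cell, secretory factor, folding, O-glycan, cytokine, gastric, Paneth and acinar genes, the 5 genes nearest in pattern to *Retnlb*, to *B3gnt6* and to the members' median, and *Pla2g3*, except 1 gene that is not reported here. The other cell type lists are given by counts and medians. Alternatives for scaling were quantile normalization, none, the median, and centering on epithelial genes. Others were normexp (limma 3.58.1 in R 4.3.3; offset 50) before quantile scaling, a floor after scaling, no regard to background, the mean over probes, the dimmest probe, the deposited table, and thresholds of 1.5-fold and 4-fold. Python 3.11.15 with pandas 2.3.3, numpy 2.4.6 and matplotlib 3.10.9 was used for the rest. Protein sequences were not used here.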

Additional observations from a re-analysis of the deposited data

Results flagged for a closer look

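No goblet cell gene had opposite differences past 2-fold under the same contrast, but the resistin family genes *Retnla* and *Retnlg* did. The KO/WT log2 difference of *Retnla* was -1.10 with vehicle and at least 9.21 after AOM, and its AOM/vehicle log2 difference was at most -8.14 in WT and 2.17 on the arrays labeled KO. For *Retnlg* the KO/WT log2 difference was 1.16 with vehicle and -5.61 after AOM, and the AOM/vehicle log2 difference was 3.36 in WT and -3.40 on the arrays labeled KO. The 2 genes moved in opposite directions in each of these 4 comparisons, which share arrays. With 1 array per group, these differences between contrasts were not tested.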

How the results depend on the processing

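No paired analysis was possible because each group has 1 array. Of 360 values of single goblet cell genes under the alternatives, 346 stayed on the same side of 2-fold, 11 no longer reached it and 3 newly reached it. Of the 346, 332 also kept their sign, and 14 that were within 2-fold in both settings changed it (*Fcgbp* for AOM over vehicle on the KO-labeled arrays, *Itln1* for AOM over vehicle in WT, *B3gnt6* between the AOM arrays, and *Tff3* and *Agr2* between the vehicle arrays). The 5 genes that were 2-fold or more higher on the KO-labeled than on the WT AOM array became 2 when arrays were centered on epithelial genes and 2 at a threshold of 4-fold. The 1 gene higher on the KO-labeled vehicle array became 0 with normexp correction and quantile normalization, and the 8 genes lower after AOM on the KO-labeled arrays became 5. These 8 became 6 with quantile normalization alone, with no scaling and at a threshold of 4-fold. Without regard to background, 1 gene was higher after AOM on the KO-labeled arrays, in place of 0.

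The scaling sets the level against which all differences are read. Without scaling, the median of all genes moved by 1.04 in log2 for AOM over vehicle in WT and by 0.84 on the KO-labeled arrays, and 45.1% of genes were higher and 7.17% lower in WT (15.1% and 22.4% with scaling), and 38.1% and 3.73% on the KO-labeled arrays (9.64% and 15.1%). Centering on epithelial genes moved it by 1.03 for AOM over vehicle in WT, with 45% of genes higher and 7.19% lower, and by -1.21 between the AOM arrays, with 4.81% higher and 60.5% lower (15.1% and 12.9%). Quantile normalization moved it by 0.17 in WT and 0.11 on the KO-labeled arrays. The median of the goblet cell genes for AOM over vehicle in WT was -3.38, and -2.36 in both of the first settings. Signals near background limit *Tff1* and *Tff2*, and *B3gnt6* after AOM had signals of 80.9 and 98.2, against lowest signals well above background of 16.4 and 17.1.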
